A study of Homo sapiens with 74 samples.

Results

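The 88 genes described here are the zinc finger genes of the short arm of human chromosome 19, taken as every gene whose symbol starts with ZNF and a digit, that is listed on chromosome 19 alone and whose midpoint lies below 26 Mb. They are 88 of the 28131 genes in the deposited tables and of 580 genes with such a symbol. Along the arm 60 of them lie below 20 Mb, from ZNF554 (chr19:2819874-2836735, GRCh38, plus strand) onward, and 28 lie above it, up to ZNF254 (chr19:24033405-24129967, plus strand). By their symbols 79 are genes, 4 are pseudogenes (ZNF812P, ZNF833P, ZNF788P and ZNF826P), 2 are readthrough transcripts, 2 are antisense RNAs and 1 is a divergent transcript. The genes above 20 Mb were longer, with a median exonic length of 4230 bases against 2991 bases below 20 Mb.

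The cells were K562 and HEL, established human leukaemia lines, and their messenger RNA was sequenced. The K562 groups are a control labelled wild type, a DOT1L knockout (KO, DOT1L-/-) and an ENL KO (ENL-/-, gene symbol MLLT1). The HEL groups are a control and a DOT1L knockdown (KD). DOT1L methylates lysine 79 of histone H3, and ENL is a reader of acetylated histones found in the DOT1L complex. The labels do not say whether a knockout line is a single clone, how HEL was depleted, or whether replicates came from separate cultures, so p-values measure the spread between these libraries, which may be technical. The K562 data hold 3 libraries for each knockout and 2 distinct ones for the control, and HEL has 2 for each of its groups.

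Most genes of these clusters encode proteins with a row of C2H2 zinc fingers, each finger reading a few bases of DNA, and many carry a KRAB domain at the amino end. The KRAB domain binds the corepressor TRIM28, which brings the histone H3 lysine 9 methyltransferase SETDB1 and heterochromatin protein 1, and many of these proteins are known to silence transposable elements. ZNF91 is known to repress SVA elements and ZNF93 to repress LINE-1 elements. The clusters grew by repeated tandem duplication, so neighbours are often near copies of one another. Reads of near-identical members can be split between them or dropped, and the values of close paralogs are uncertain for that reason.

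The duplication is visible in the promoters. RefSeq promoters (GRCh38.p14, 250 bases before to 50 after the start) matched 73 of the 88 members, 51 below and 22 above 20 Mb. Over all pairs of promoters above 20 Mb the median sequence identity was 75.8%, against 48.1% below 20 Mb and 48.8% between the sides. The stretches printed here run from 250 to 51 bases before the start, 5′ to 3′ on the gene's strand. Capitals mark CCAAT, the box bound by NF-Y, and GGGCGG, the GC box bound by factors of the SP and KLF families, or CCGCCC, its other strand. ZNF562 (chr19:9675151-9675350, minus strand) and ZNF844 (chr19:12064481-12064680, plus strand) show the variety below 20 Mb. ZNF486 (chr19:20166964-20167163, plus) and ZNF208 (chr19:22010994-22011193, minus) fell in the DOT1L KO, whereas ZNF430 (chr19:21020407-21020606, plus) and ZNF431 (chr19:21141790-21141989, plus) did not pass the test there.
ZNF562: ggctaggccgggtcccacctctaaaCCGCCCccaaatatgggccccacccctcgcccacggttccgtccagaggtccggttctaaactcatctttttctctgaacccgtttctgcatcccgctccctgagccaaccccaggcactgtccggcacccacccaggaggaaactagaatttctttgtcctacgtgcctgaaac
ZNF844: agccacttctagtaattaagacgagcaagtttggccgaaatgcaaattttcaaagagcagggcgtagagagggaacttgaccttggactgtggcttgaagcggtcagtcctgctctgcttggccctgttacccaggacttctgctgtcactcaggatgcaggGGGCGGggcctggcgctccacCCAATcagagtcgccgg
ZNF486: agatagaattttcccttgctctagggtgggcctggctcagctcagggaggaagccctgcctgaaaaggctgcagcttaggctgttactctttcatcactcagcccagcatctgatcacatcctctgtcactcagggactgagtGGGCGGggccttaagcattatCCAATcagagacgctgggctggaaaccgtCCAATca
ZNF208: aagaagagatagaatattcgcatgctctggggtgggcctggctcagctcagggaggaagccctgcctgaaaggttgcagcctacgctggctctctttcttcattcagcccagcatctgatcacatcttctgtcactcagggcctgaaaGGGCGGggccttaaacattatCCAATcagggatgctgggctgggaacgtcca
ZNF430: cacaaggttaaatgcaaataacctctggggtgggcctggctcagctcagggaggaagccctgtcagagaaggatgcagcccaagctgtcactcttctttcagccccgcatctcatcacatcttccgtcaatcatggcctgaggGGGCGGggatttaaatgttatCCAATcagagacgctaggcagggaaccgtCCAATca
ZNF431: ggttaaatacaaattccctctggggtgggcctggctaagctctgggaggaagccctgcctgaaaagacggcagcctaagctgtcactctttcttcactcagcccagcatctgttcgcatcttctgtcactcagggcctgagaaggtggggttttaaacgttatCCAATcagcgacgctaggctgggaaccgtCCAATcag

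In ZNF486 and in ZNF430 the GC box lay 107 bases before the start, and CCAAT lay 86 and 57 bases before it. These letters thus had the same arrangement in a gene that fell to almost no counts and in one that did not pass the test. ZNF208 had its first CCAAT 81 bases before the start and its GC box 102 bases before it, and ZNF431 had CCAAT at 87 and 58 bases with no GC box in the printed stretch. On either strand of the whole promoter, CCAAT was present in 22 of 22 members above 20 Mb and in 36 of 51 below it, against 35.7% of the 27305 promoters in the table. Zinc finger genes of the long arm held it in 40% of promoters, those of other chromosomes in 42.6% and other genes of the short arm in 37.2%. GGGCGG was present in 58 of 73 members (79.5%), against 44.6% of all promoters, 70.8% of those of other short-arm genes and 60.6% and 60% of those of zinc finger genes of the long arm and of other chromosomes. CCAAT was also present in 22 of 22 promoters of members that fell by at least 1 on the log2 scale in the DOT1L KO and in 25 of 40 of the other tested members. Above 20 Mb ZNF430, ZNF714, ZNF431, ZNF708 and ZNF429, which did not fall by as much, held it too. CCAAT and position on the arm go together in this count, and a link to the decrease was not tested.

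The motif TGACGTCA, the cAMP response element, was found in 7 members, or 9.59% against 1.98% of all promoters. All 7 lie in the run of 8 neighbours from ZNF266 to ZNF562, below 20 Mb, in which ZNF560 is the member without it. The promoters of ZNF426 and ZNF426-DT overlap on opposite strands, as do those of ZNF561 and ZNF561-AS1. The same site can count for both members of such a pair, so the 7 are not all independent promoters. TATAAA was present in 4 of 73 members (5.48%, against 12% of all promoters) and AAGATGG in 5 (6.85%, against 6.06%). The ratio of observed to expected CpG had a median of 0.66 below 20 Mb, 0.44 above it and 0.58 over all promoters. It was 0.83 for zinc finger genes of the long arm, 0.81 for those of other chromosomes and 0.80 for other genes of the short arm, above the members on both sides of 20 Mb. Motifs were searched one by one on both strands, TGACGTCA reads the same on both, and a match is a description of letters.

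The K562 libraries held 15404944 to 29236703 counts in all, and those of HEL 12151495 to 12811688. DOT1L messenger RNA was not absent from the library group labelled DOT1L KO: it was 263 ± 9.84 CPM (SD, n = 2) in the K562 control and 182 ± 5.15 CPM (n = 3) in the KO, and MLLT1 was 216 ± 3.56 CPM (n = 2) in the control and 154 ± 1.92 CPM (n = 3) in the ENL KO. CPM are counts relative to the library total, scaled between libraries by the TMM method. The labels do not give the edited stretch of either gene, so these levels do not check a deletion. In HEL, DOT1L was 92.4 ± 7.12 CPM (n = 2) in the control and 29.6 ± 0.641 CPM (n = 2) in the KD. All 6 erythroid markers were detected in every group. Their summed level was 985 to 1000 CPM in the K562 control, 1560 to 1578 CPM in the DOT1L KO and 1116 to 1190 CPM in the ENL KO, and 1643 to 1675 CPM and 1906 to 1927 CPM in the HEL control and KD. Of 6 markers of other blood lineages MS4A1 was at 0 in every group, and the list summed to 54.0 to 55.6 CPM, 17.4 to 21.8 CPM and 62.2 to 73.2 CPM in the K562 control, DOT1L KO and ENL KO, nearly all of it CD3D. In HEL it summed to 10.5 to 12.9 CPM in the control and 10.1 to 10.7 CPM in the KD. Most of that was CD2, with means of 9.80 and 9.28 CPM. Markers of fibroblasts reached at most 0.284 CPM. The part of these differences in the results was not tested, and in bulk RNA fewer cells with a transcript and less transcript per cell cannot be told apart.

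Per kilobase of exon, the highest levels on the arm belonged to genes below 20 Mb. In the K562 control ZNF121 stood at 19.1 ± 0.245 CPM per kb (SD, n = 2), ZNF317 at 18.4 ± 0.653, ZNF358 at 16.0 ± 1.57, ZNF414 at 12.7 ± 1.20 and ZNF562 at 9.10 ± 0.465 CPM per kb. ZNF121 and ZNF317 lay within their spread of each other. The highest member above 20 Mb was ZNF254, with 7.35 ± 0.507 CPM per kb. In the HEL control ZNF121 was again first with 22.8 ± 0.670 CPM per kb (n = 2). It was followed by ZNF560 with 18.8 ± 0.538, ZNF317 with 15.6 ± 0.0303, ZNF627 with 15.0 ± 2.15 and ZNF562 with 14.9 ± 0.282 CPM per kb. ZNF627 lay within its spread of both ZNF317 and ZNF562, and ZNF317 stood above ZNF562 in both libraries.

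Several members had counts in 1 line and almost none in the other. ZNF560 stood at 51.6 and 53.7 CPM in the HEL controls and had at most 4 counts in any K562 library. ZNF439 stood at 7.11 and 7.38 CPM in the HEL controls and also had at most 4 counts in any K562 library. In the other direction, ZNF486 stood at 6.42 and 5.44 CPM in the K562 controls and had 0 and 1 count in the HEL controls. ZNF90, ZNF626, ZNF826P, ZNF208 and ZNF728, all above 20 Mb, likewise had 0 or 1 count in each HEL control. In K562 3 members had no count in any library (ZNF177, ZNF20 and ZNF729), and in HEL 6 had none. ZNF177 and ZNF20 share 97.6% and 97.3% of their exonic bases with the readthrough entries, so a count of 0 cannot be read as absence there.

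Enough counts for a test were present in K562 for 71 of the 88 members, 49 below and 22 above 20 Mb. A member is said to rise or fall where edgeR's quasi-likelihood test gave an adjusted p (Benjamini-Hochberg over all genes tested) below 0.05. Of the 71, 60 had a control mean of at least 1 CPM. The 17 members not tested had at most 9 counts in any K562 library.

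To ask what loss of DOT1L does to the arm, the K562 DOT1L KO was compared with the control. Of the 71 members tested, 38 fell and 5 rose. Over all 14301 genes tested 51.1% were past the threshold, 24.2% were past it and lower, and 4.09% were lower by a log2 fold change of at least 1, whereas 27 of the 71 members were. Most of the large decreases lay above 20 Mb. Below 20 Mb 19 of 49 fell and 5 rose, with a median log2 fold change of -0.23, and above 20 Mb 19 of 22 fell and 0 rose, with a median of -2.58. The median over all genes tested was 0.01. Summed over the 28 members above 20 Mb, the level was 248 ± 0.661 CPM (SD, n = 2) in the control and 131 ± 7.51 CPM (n = 3) in the KO, or 52.6% of the control. The sum over the 60 members below 20 Mb was 587 ± 21.1 CPM and 513 ± 7.74 CPM, or 87.3%. Of the 20 members above 20 Mb with a control mean of at least 1 CPM, 17 fell and 0 rose.

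**Figure D1:**
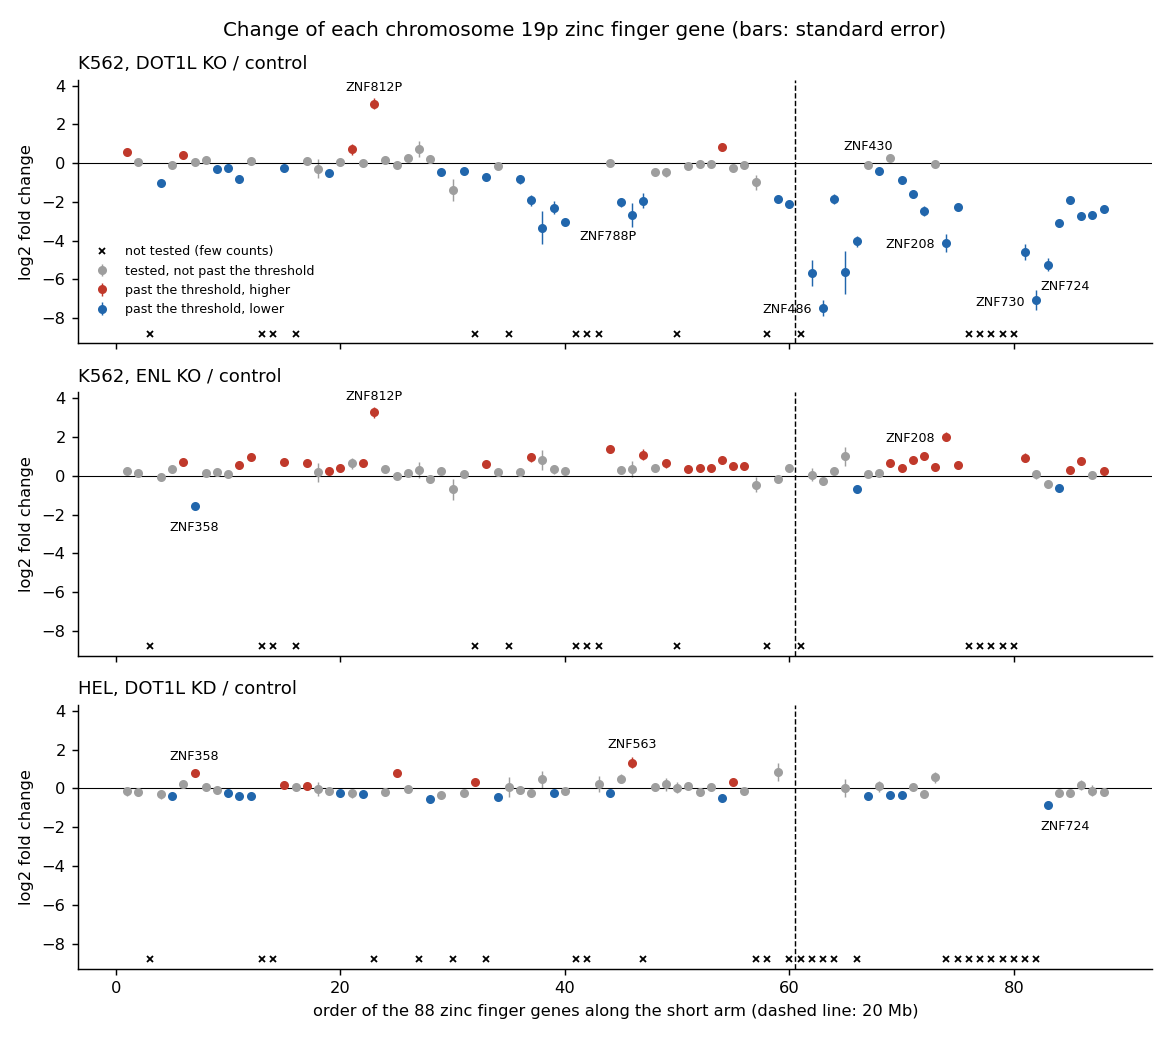
Log2 fold change (vertical axis, bars are standard errors) of each member in its order along the arm, for the K562 DOT1L KO, the K562 ENL KO and the HEL DOT1L KD against their controls, with crosses for members that had too few counts for a test. In the DOT1L KO the points right of the 20 Mb line reach -7.48, while ZNF430, ZNF431 and ZNF429 stay near 0, and in HEL no point lies outside -0.84 to 1.34.

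The decreases formed runs of neighbours. Before the first run of neighbours ZNF57 fell alone by at least 1, by 1.01 on the log2 scale (SE 0.13). The abundant ZNF317 and ZNF121 fell by 0.26 (SE 0.06) and 0.51 (SE 0.09), and ZNF699, ZNF69 and ZNF433-AS1 by 0.81, 0.71 and 0.84. The calls of ZNF699, ZNF69 and ZNF433-AS1 rested on single control libraries. Without K562 control replicate 1 the changes were -0.58 in ZNF699 and -0.46 in ZNF69. Without control replicate 2 that of ZNF433-AS1 was -0.49. ZNF433-AS1 shares 188 exonic bases with ZNF433 on the other strand, and whether counting used strand is not given. The first run held ZNF433, ZNF878, ZNF844 and ZNF788P (chr19:12014717-12114752). ZNF136, next along the arm among the tested members, had a log2 fold change of -0.01 (SE 0.15). Beyond it ZNF44, ZNF563 and ZNF442 (chr19:12271810-12365683) fell by 2.03, 2.67 and 1.93. From ZNF799 to ZNF56 no tested member fell, and ZNF56 itself had a log2 fold change of -0.98 (SE 0.39) that did not pass the test. The next run held 7 tested members from ZNF253 to ZNF626 (chr19:19865830-20661596) and crossed the 20 Mb line. After ZNF430, ZNF714, ZNF431 and ZNF708, which fell by less than 1 or did not pass the test, ZNF738 and ZNF493 fell by 1.59 and 2.47. ZNF429 was at -0.03 (SE 0.08), and the last run held all 10 tested members from ZNF208 to ZNF254 (chr19:21939766-24129967), with log2 fold changes from -7.07 to -1.90.

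ZNF788P, a transcribed pseudogene (chr19:12092263-12114752, plus strand), stood at 18.2 and 18.8 CPM in the controls and at 2.82, 2.13 and 1.94 CPM in the DOT1L KO. All 3 KO libraries lay far below both controls, and the log2 fold change was -3.01 (SE 0.13, edgeR adjusted p = 5.62e-10). ZNF844 (chr19:12064699-12077816, plus strand) stood at 3.30 and 3.55 CPM in the controls and at 0.636, 0.338 and 1.23 CPM in the KO. The groups did not overlap, although the third KO library held the most, and the log2 fold change was -2.29 (SE 0.32, edgeR adjusted p = 4.25e-05). ZNF136 (chr19:12163047-12189881, plus strand), between the first runs, stood at 5.11 and 4.87 CPM in the controls and at 5.81, 5.00 and 4.07 CPM in the KO, so the groups overlapped. ZNF93, the LINE-1 repressor just below 20 Mb, stood at 5.21 and 6.43 CPM in the controls and at 1.36, 1.01 and 1.80 CPM in the KO (log2 fold change -2.10, SE 0.21, edgeR adjusted p = 1.75e-06). In the low members ZNF878 and ZNF563 the decrease rested on few counts. ZNF878 had 4 and 10 counts in the controls and 1, 0 and 1 in the KO, a control to KO ratio of 11.9 with a 95% counting interval of 2.74 to 108. Without K562 control replicate 2 the call was lost for ZNF878 (log2 fold change -2.53, edgeR adjusted p = 0.110) and for ZNF563 (-2.15, adjusted p = 0.0513).

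Above 20 Mb several members fell to almost no counts. ZNF486 (chr19:20167214-20200490, plus strand) had 138 and 115 counts in the controls and 2, 0 and 0 in the DOT1L KO. The control to KO ratio, scaled to library size, was 216 with a 95% counting interval of 59.1 to 1791. ZNF730 (chr19:23116975-23147212, plus strand) had 63 and 49 counts in the controls and 1, 0 and 0 in the KO, a ratio of 191 with an interval of 33.6 to 7611. The lower ends of both intervals lie well above 10-fold. Intervals and floors use counts summed over a group, so they cover counting error only and leave out the spread between libraries. PCR copies carry no molecular identifiers, so the counting error may itself be larger. ZNF737 had 6 and 6 counts in the controls and 0 in all 3 KO libraries, which is at least 6.82-fold lower against a floor of 3 counts over the group. The fitted log2 fold changes were -7.48 for ZNF486 (SE 0.40, edgeR adjusted p = 4.67e-09) and -7.07 for ZNF730 (SE 0.53, edgeR adjusted p = 1.11e-07). They moved with single KO libraries, to -9.99 and -8.82 without DOT1L KO replicate 1 and to -6.82 and -6.48 without replicate 2.

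ZNF724 (chr19:23221599-23250390, minus strand) stood at 6.65 and 6.20 CPM in the controls and at 0.363, 0.101 and 0.0473 CPM in the DOT1L KO. Its log2 fold change was -5.23 (SE 0.32, edgeR adjusted p = 1.49e-08) and -6.25 without DOT1L KO replicate 1, the KO library in which ZNF724 was highest. ZNF208 (chr19:21939766-22010943, minus strand) had 55 and 51 counts in the controls and 0, 7 and 3 in the KO, with a log2 fold change of -4.12 (SE 0.46), or -5.04 without DOT1L KO replicate 2. ZNF728 had 36 and 40 counts in the controls and 3, 1 and 1 in the KO (-4.58, SE 0.43, or -5.30 without DOT1L KO replicate 1). ZNF626 stood at 4.51 and 3.74 CPM in the controls and at 0.318, 0.203 and 0.237 CPM in the KO, and fell by 4.03 on the log2 scale (SE 0.28). All KO libraries of these genes lay below both controls by a wide margin.

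ZNF91, the SVA repressor (chr19:23357696-23395560, minus strand), stood at 6.18 and 6.76 CPM in the controls and at 0.954, 0.608 and 0.710 CPM in the DOT1L KO, or 11.6% of the control in the fit (log2 fold change -3.11, SE 0.20, edgeR adjusted p = 2.39e-08). ZNF493 stood at 6.00 and 5.01 CPM in the controls and at 0.954, 0.878 and 1.18 CPM in the KO (-2.47, SE 0.24). The most abundant of the strongly lowered members, ZNF254, stood at 33.2 and 36.7 CPM in the controls and at 6.5, 6.96 and 7.05 CPM in the KO (-2.35, SE 0.10). For each of these genes the groups lay far apart. ZNF254 falls outside the rule for named genes and was singled out after its values were seen, as the last member of the arm. ZNF675, ZNF681 and ZNF726, its neighbours, fell by 1.90, 2.73 and 2.70.

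Some members that did not pass the test lay among those that fell. ZNF430 (chr19:21020620-21060047, plus strand) stood at 12.5 and 11.1 CPM in the controls and at 10.1, 12 and 11.4 CPM in the DOT1L KO, overlapping groups with a log2 fold change of -0.08 (SE 0.13). ZNF431 (chr19:21142010-21196056, plus strand) stood at 29.7 and 28.2 CPM in the controls and at 31.8, 34.6 and 36.4 CPM in the KO, with a log2 fold change of 0.24 (SE 0.10) that did not pass the test (edgeR adjusted p = 0.0675). ZNF429 stood at 21.3 and 22.6 CPM in the controls and at 21.7, 21.4 and 21.6 CPM in the KO. ZNF714, between ZNF430 and ZNF431, fell by 0.39 (SE 0.09), and ZNF708, the next gene, fell from 10.2 and 10.5 CPM to 4.91, 6.11 and 6.15 CPM (-0.85, SE 0.14). These 5 were the tested members above 20 Mb that did not fall by at least 1.

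**Figure D2:**
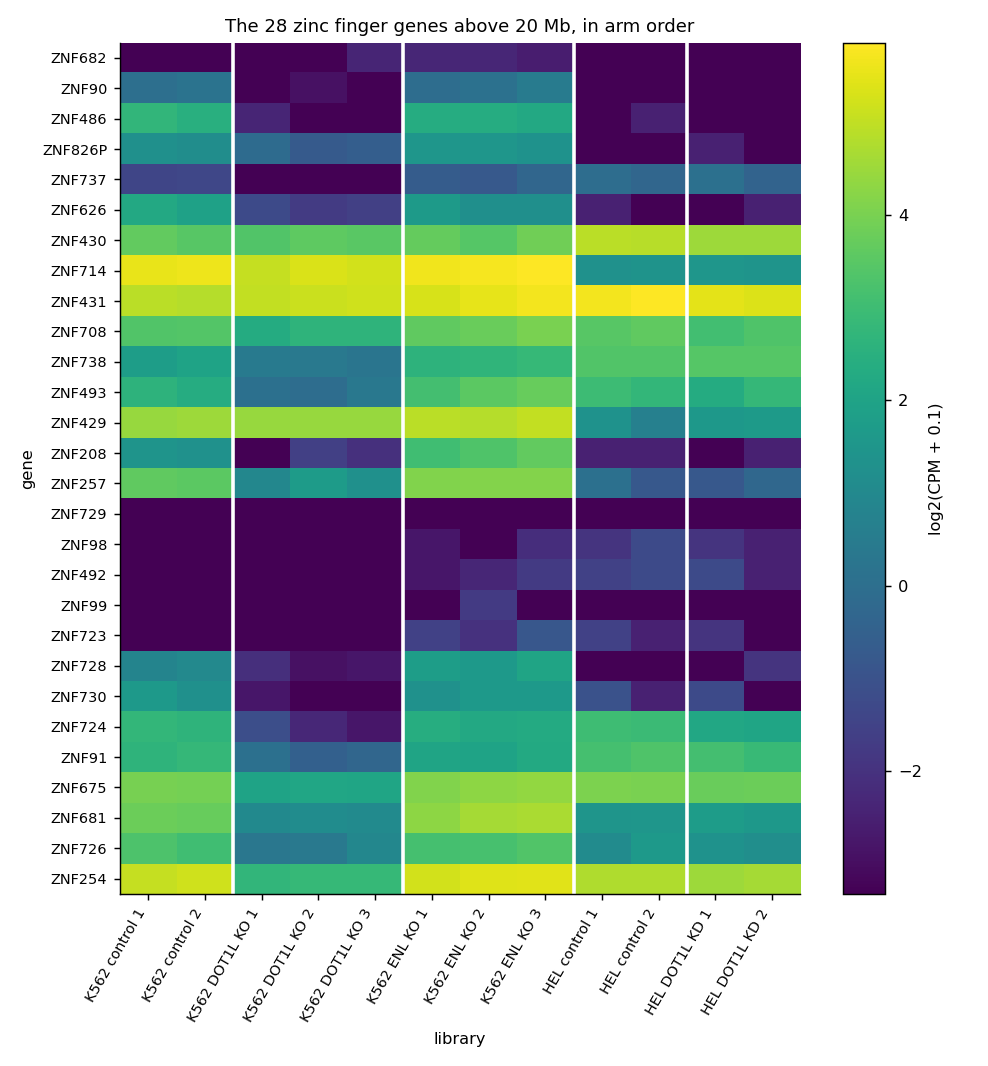
Level of the 28 members above 20 Mb in each of the 12 libraries, as log2 of CPM plus 0.1, with genes from top to bottom in their order along the arm and white lines between groups. The 3 DOT1L KO libraries are darker, that is lower, than the control in most expressed rows but not in ZNF430, ZNF431 and ZNF429, and several rows that are dark in the DOT1L KO are dark in HEL too.

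The 5 increases in the DOT1L KO all lay below 20 Mb. ZNF812P, a transcribed pseudogene (chr19:9688860-9700776, minus strand), stood at 0.511 and 0.378 CPM in the controls, at 3.5, 3.92 and 3.79 CPM in the DOT1L KO and at 3.38, 4.77 and 5.01 CPM in the ENL KO. Both knockouts lay above both controls, with log2 fold changes of 3.05 (SE 0.29, edgeR adjusted p = 1.11e-06) and 3.27 (SE 0.29, edgeR adjusted p = 8.83e-07). ZNF333 stood at 2.88 and 2.70 CPM in the controls, at 4.63, 4.56 and 5.63 CPM in the DOT1L KO and at 4.20, 5.65 and 4.75 CPM in the ENL KO, with log2 fold changes of 0.82 and 0.80 (SE 0.18 in both). ZNF333 shares 1050 of its 7910 exonic bases (13.3%) with exons of ADGRE2 on the opposite strand. The use of strand in counting is not stated in the sources used here, so reads of both genes cannot be told apart in that stretch. ZNF557 rose by 0.43 (SE 0.11) and ZNF554 by 0.57 (SE 0.17). The call was lost for ZNF557 without K562 control replicate 1 (0.39, edgeR adjusted p = 0.06) and for ZNF554 without control replicate 2 (0.49, edgeR adjusted p = 0.110). ZNF561-AS1, an antisense RNA, rose by 0.73 (SE 0.28, edgeR adjusted p = 0.0468), and its call was lost when any library but DOT1L KO replicate 3 was left out, with an edgeR adjusted p of up to 0.175.

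**Figure D3:**
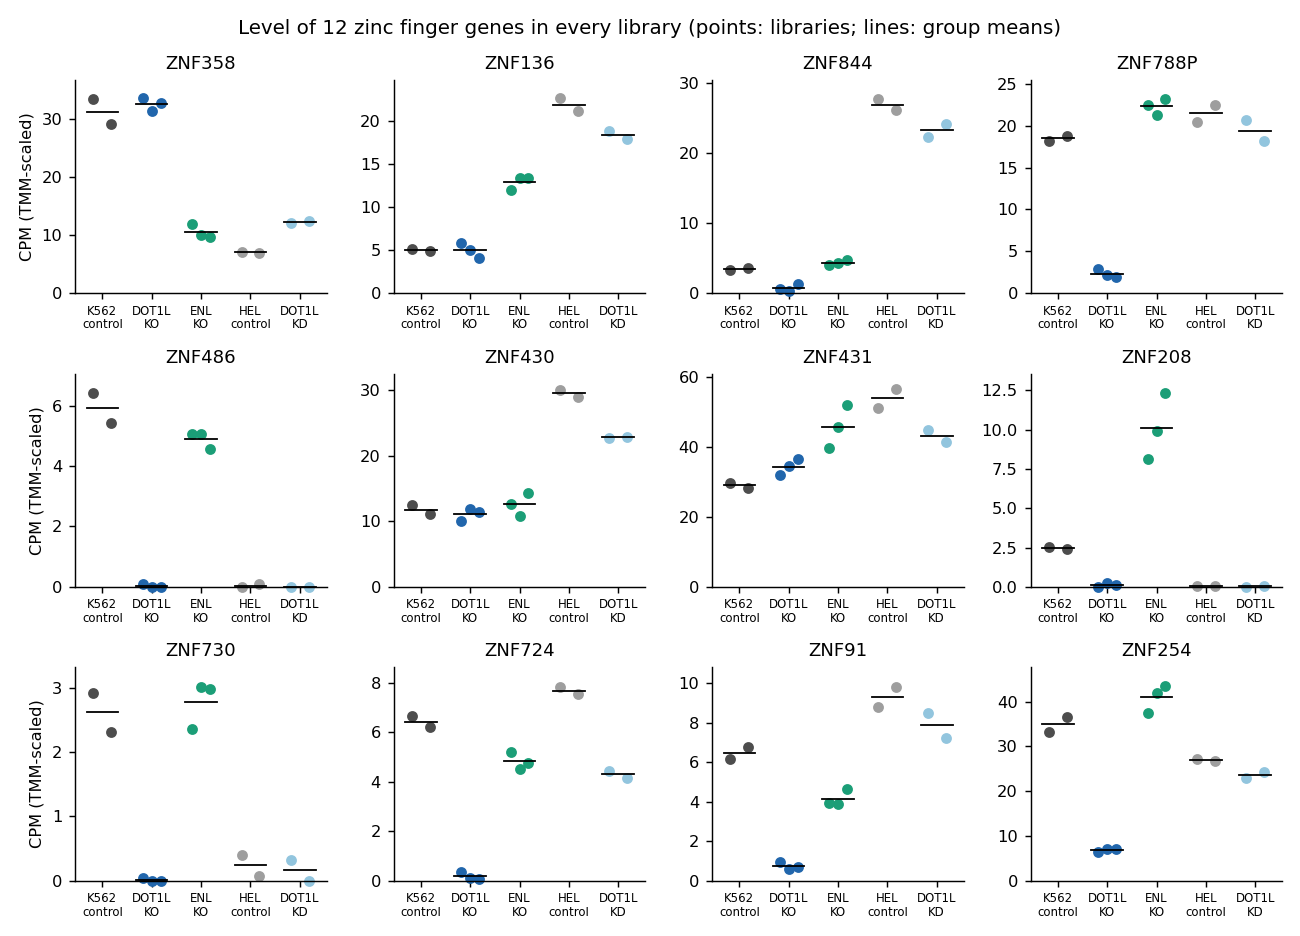
CPM of 12 members in every library (points) with group means (lines), on linear axes that start at 0 and differ between panels. ZNF788P, ZNF486, ZNF208, ZNF730, ZNF724, ZNF91 and ZNF254 sit near the bottom in the DOT1L KO, ZNF430 and ZNF136 keep to the control level there, and ZNF358 is low in the ENL KO.

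The ENL KO was compared with the same control libraries, so values of both knockouts share the error of the controls and stand side by side here. Of 71 members tested, 31 rose and 3 fell. Over all 14301 genes 41% were past the threshold, 18.8% higher and 22.2% lower. Below 20 Mb 20 of 49 members rose and 1 fell, with a median log2 fold change of 0.34, and above 20 Mb 11 of 22 rose and 2 fell, with a median of 0.27. By at least 1 on the log2 scale 4 members rose and 1 fell, against 2.89% and 8.11% of all genes. The summed level above 20 Mb was 321 ± 27.9 CPM (SD, n = 3), 129% of the control, and below 20 Mb it was 733 ± 24.6 CPM, 125% of the control. The labels of the control and DOT1L KO name a sequencing lane and those of the ENL KO name none, so the effect of ENL loss and that of a separate run cannot be told apart.

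The largest increase in the ENL KO above 20 Mb was that of ZNF208, which had 55 and 51 counts in the controls and 169, 204 and 189 in the ENL KO, at 8.16, 9.93 and 12.3 CPM. Every ENL KO library lay above both controls, and the log2 fold change was 2.01 (SE 0.24, edgeR adjusted p = 1.54e-05). ZNF493 rose from 6.00 and 5.01 CPM to 8.45, 11.6 and 13.2 CPM (1.00, SE 0.18), and ZNF728 from 1.67 and 1.89 CPM to 3.38, 2.92 and 3.97 CPM (0.93, SE 0.23). For ZNF728 the call was lost without K562 control replicate 1 (0.84, edgeR adjusted p = 0.0577). Below 20 Mb ZNF136 stood at 11.9, 13.4 and 13.4 CPM in the ENL KO, above the 5.11 and 4.87 CPM of the controls (1.37, SE 0.14, edgeR adjusted p = 5.60e-06). ZNF442 rose from 20 and 21 counts to 49, 41 and 27 counts (1.09, SE 0.27).

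Of the 38 members that fell in the DOT1L KO, 15 rose in the ENL KO, 2 fell in both and 21 did not pass the test in the ENL KO. Over all 71 members tested 43.7% rose in the ENL KO, against 18.8% of all genes. A rise there was thus not particular to the members that fell in the DOT1L KO. The same split was not computed over all genes. Of the 15 increases, 8 kept their call whichever library was left out, and those of ZNF699, ZNF121, ZNF69, ZNF708, ZNF728, ZNF675 and ZNF254 lost it in at least 1 such fit. ZNF254 lost it in 6 of 8 such fits and also with DESeq2 and with other scalings and filters. The 2 that fell in both were ZNF626 and ZNF91. ZNF91 stood at 3.96, 3.89 and 4.62 CPM in the ENL KO (-0.65, SE 0.16) and ZNF626 at 3.14, 2.29 and 2.28 CPM (-0.67, SE 0.20). Both stayed well above their levels in the DOT1L KO. The ENL KO call was lost for ZNF91 without K562 control replicate 2 (-0.58, edgeR adjusted p = 0.0548) and for ZNF626 without control replicate 1 (-0.53, edgeR adjusted p = 0.160) or ENL KO replicate 2 (-0.59, edgeR adjusted p = 0.0607), and for ZNF626 also with DESeq2 (adjusted p = 0.0576). The third decrease was that of ZNF358 (chr19:7516118-7521025, plus strand), one of the highest members per kilobase in K562, which stood at 33.5 and 29.1 CPM in the controls, 33.8, 31.4 and 32.9 CPM in the DOT1L KO and 11.8, 10.1 and 9.70 CPM in the ENL KO. Its level in the DOT1L KO overlapped the control, whereas all 3 ENL KO libraries lay far below both controls (-1.56, SE 0.10, edgeR adjusted p = 5.04e-08).

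The knockouts were also compared with each other, which leaves the control out of the estimate. The labels of the DOT1L KO name a sequencing lane and those of the ENL KO none. A difference between the knockouts and a separate run thus cannot be told apart here either. Of 71 members, 55 were lower in the DOT1L KO than in the ENL KO and 2 were higher, where 60.2% of all genes were past the threshold and 28.3% were lower. Lower by at least 1 were 32 members, against 3.82% of all genes. Among them ZNF563, ZNF737 and ZNF878 had enough counts for a test only with the ENL KO libraries, which favours a lower DOT1L KO in these genes. Above 20 Mb 21 of 22 were lower, with a median log2 difference of -2.79, and ZNF430 (-0.16, SE 0.12) was the member that did not pass the test. Below 20 Mb 34 of 49 were lower, with a median of -0.55. ZNF208 had the widest difference among members with over 3 counts in each group, -6.14 (SE 0.34, edgeR adjusted p = 2.57e-09). The 2 members that were higher in the DOT1L KO were ZNF358 (1.63, SE 0.09) and ZNF823 (0.36, SE 0.13). The call of ZNF823 was lost without DOT1L KO replicate 2 (0.27, edgeR adjusted p = 0.112) or ENL KO replicate 1 (0.29, edgeR adjusted p = 0.0897).

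In HEL 61 members had enough counts for a test, 47 below and 14 above 20 Mb. DOT1L knockdown lowered 15 and raised 7 of them, where 55% of all 12635 genes tested were past the threshold, 27% higher and 28% lower. Below 20 Mb 11 fell and 7 rose with a median log2 fold change of -0.09, and above 20 Mb 4 of 14 fell and 0 rose with a median of -0.22. Summed levels were 185 ± 2.83 CPM (SD, n = 2) in the control and 154 ± 0.676 CPM (n = 2) in the KD above 20 Mb, or 83.5% of the control, and 863 ± 5.28 CPM and 818 ± 4.06 CPM below 20 Mb, or 94.8%. With upper-quartile scaling 10 members rose and 9 fell, and with library-size scaling 8 rose and 11 fell, so the balance of directions depended on the scaling. Without HEL control replicate 2, 14 members were past the threshold, and with DESeq2 10 were.

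The 4 decreases above 20 Mb in HEL were ZNF724, ZNF430, ZNF708 and ZNF431. ZNF724 stood at 7.83 and 7.54 CPM in the HEL controls and at 4.45 and 4.15 CPM in the KD, so that it fell by 0.84 on the log2 scale (SE 0.18, edgeR adjusted p = 8.46e-05). ZNF430 stood at 30.0 and 29.1 CPM in the controls and at 22.7 and 22.9 CPM in the KD (-0.37, SE 0.09). In both genes each KD library was below each control. ZNF431 fell by 0.32 (SE 0.07). ZNF708 stood at 10.9 and 12.1 CPM in the controls and at 8.35 and 9.84 CPM in the KD (-0.34, SE 0.14), and its call was lost without HEL control replicate 2 (-0.27, edgeR adjusted p = 0.185) or KD replicate 1 (-0.23, edgeR adjusted p = 0.268). Upper-quartile scaling (edgeR adjusted p = 0.0887), no filter on low counts (0.0748) and DESeq2 (0.218) ended it as well.

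Below 20 Mb in HEL the largest increase was that of ZNF563, whose counts were 19 and 16 without and 42 and 46 with knockdown (1.34, SE 0.28, edgeR adjusted p = 6.61e-05). It was the only member past a log2 change of 1 in HEL, where 3.37% of all genes rose by as much, and the same gene fell in the K562 DOT1L KO. ZNF653 rose from 3.59 and 3.81 CPM to 5.96 and 7.16 CPM (0.82, SE 0.19) and ZNF358 from 7.03 and 6.99 CPM to 12.1 and 12.4 CPM (0.81, SE 0.14). ZNF653 shares 8 exonic bases with its neighbour ECSIT. ZNF333 fell from 38.3 and 36.5 CPM to 24.2 and 28.1 CPM (-0.52, SE 0.08), the opposite direction to both K562 knockouts, with the same limit from ADGRE2. ZNF700 fell from 31.4 and 32.1 CPM to 22.0 and 24.1 CPM (-0.46, SE 0.08). ZNF823 fell from 9.51 and 11.5 CPM to 6.68 and 7.65 CPM (-0.55, SE 0.15), a call lost without HEL control replicate 2 (-0.41, edgeR adjusted p = 0.0580) and with DESeq2 (-0.56, adjusted p = 0.0538). The abundant ZNF317 fell by 0.23 (SE 0.06) and ZNF562 by 0.26 (SE 0.05).

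Of the 27 members that fell by at least 1 in the K562 DOT1L KO, 14 had a mean of at least 1 CPM in the HEL control and 13 did not. Among the 17 of these that could be tested in HEL, 2 fell (ZNF844 and ZNF724), 1 rose (ZNF563), and the log2 fold changes ran from -0.84 to 1.34 with a median of -0.14. The call of ZNF844 (-0.21, SE 0.09) was lost without HEL control replicate 1 (-0.17, edgeR adjusted p = 0.177) or KD replicate 1 (-0.16, edgeR adjusted p = 0.238), and with upper-quartile or library-size scaling, no filter on low counts or DESeq2. ZNF788P stood at 20.5 and 22.5 CPM in the HEL controls and at 20.7 and 18.2 CPM in the KD, overlapping groups. ZNF254 stood at 27.2 and 26.7 CPM in the HEL controls and at 22.9 and 24.3 CPM in the KD (-0.19, SE 0.09), which did not pass the test (edgeR adjusted p = 0.0586). ZNF91 stood at 8.79 and 9.84 CPM in the HEL controls and at 8.51 and 7.24 CPM in the KD (-0.24, SE 0.15).

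**Figure D4:**
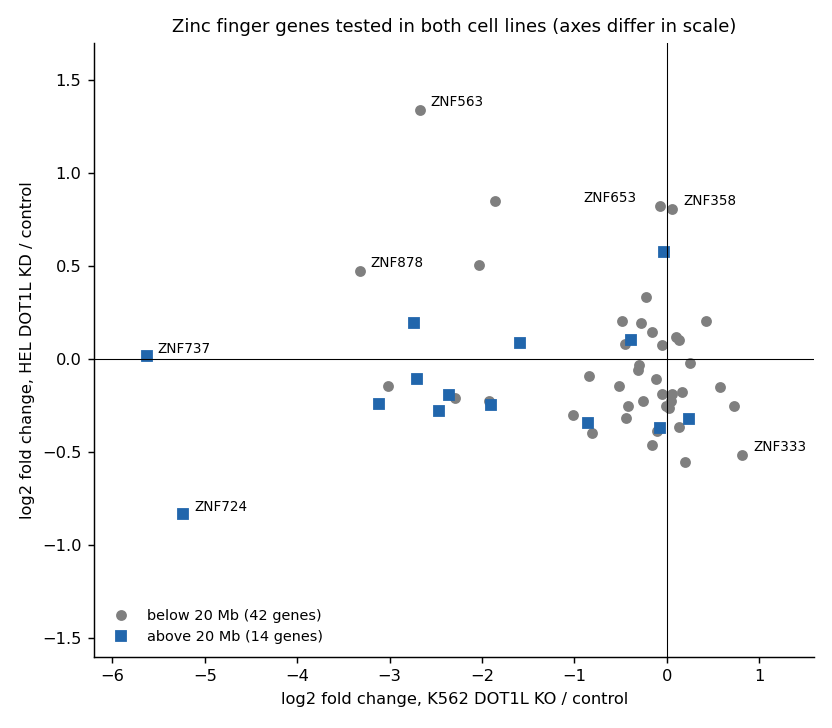
Log2 fold change in the K562 DOT1L KO (horizontal) and in the HEL DOT1L KD (vertical, at another scale) of the 56 members tested in both lines, with squares for the 14 members above 20 Mb. The K562 values span -5.63 to 0.82 and the HEL values -0.84 to 1.34, and ZNF563 falls in K562 and rises in HEL.

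The difference between the lines was tested as an interaction. Of 76 members tested, the change in HEL was higher than in K562 for 27 and lower for 5, where 38.9% of all 15367 genes tested were past the threshold and 19.8% were higher. Higher by at least 1 were 20 members, against 4.85% of all genes. These 20 include ZNF442, ZNF257, ZNF728 and ZNF730, which had too few counts for a test in HEL alone. Their differences rest on few HEL counts, and the 20 are no count of members measured well in both lines. Among the 56 members tested in both lines alone 23 were higher and 5 lower. Above 20 Mb 10 of 14 such members were higher in HEL and 1 was lower, with a median difference of 1.94 on the log2 scale, and below 20 Mb 13 of 42 were higher and 4 lower, with a median of 0.16. In ZNF788P the difference was 2.89 (SE 0.18, edgeR adjusted p = 4.70e-11), in ZNF724 4.41 (SE 0.41, edgeR adjusted p = 2.44e-08) and in ZNF91 2.89 (SE 0.27, edgeR adjusted p = 1.84e-08). The line, knockdown against knockout, the depth of DOT1L loss and read against fragment counting go together in this comparison and cannot be told apart.

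The zinc finger genes of other chromosome arms and the other genes of the short arm give these values a setting. In the DOT1L KO 59 of 153 tested zinc finger genes of the long arm fell and 19 rose (median log2 fold change -0.28), 50 of 246 on other chromosomes fell and 63 rose (0.06), and 117 of 421 other genes of the short arm fell and 79 rose (-0.04). Lower by at least 1 were 19, 11 and 29 genes of these 3 lists, against 27 of the 71 members. In the ENL KO 113 of 153 on the long arm rose and 3 fell (median 0.70), 51 of 246 on other chromosomes rose and 47 fell, and 73 of 421 other genes of the short arm rose and 92 fell. Higher by at least 1 there were 51, 13 and 4 genes, against 4 of the 71 members. In the HEL KD 26 of 150 zinc finger genes of the long arm fell and 35 rose. On other chromosomes 51 of 219 fell and 49 rose, and of other short-arm genes 47 of 358 fell and 157 rose. Between the knockouts 117 of 153 zinc finger genes of the long arm (76.5%) were lower in the DOT1L KO, 72 of them by at least 1, against 55 of the 71 members (77.5%). In the interaction 145 of 430 other genes of the short arm (33.7%) were higher in HEL and 35 were lower, against 27 of the 76 members (35.5%) and 46 of 160 zinc finger genes of the long arm (28.8%). These counts describe the lists, and no test of the difference between lists was made.

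**Figure D5:**
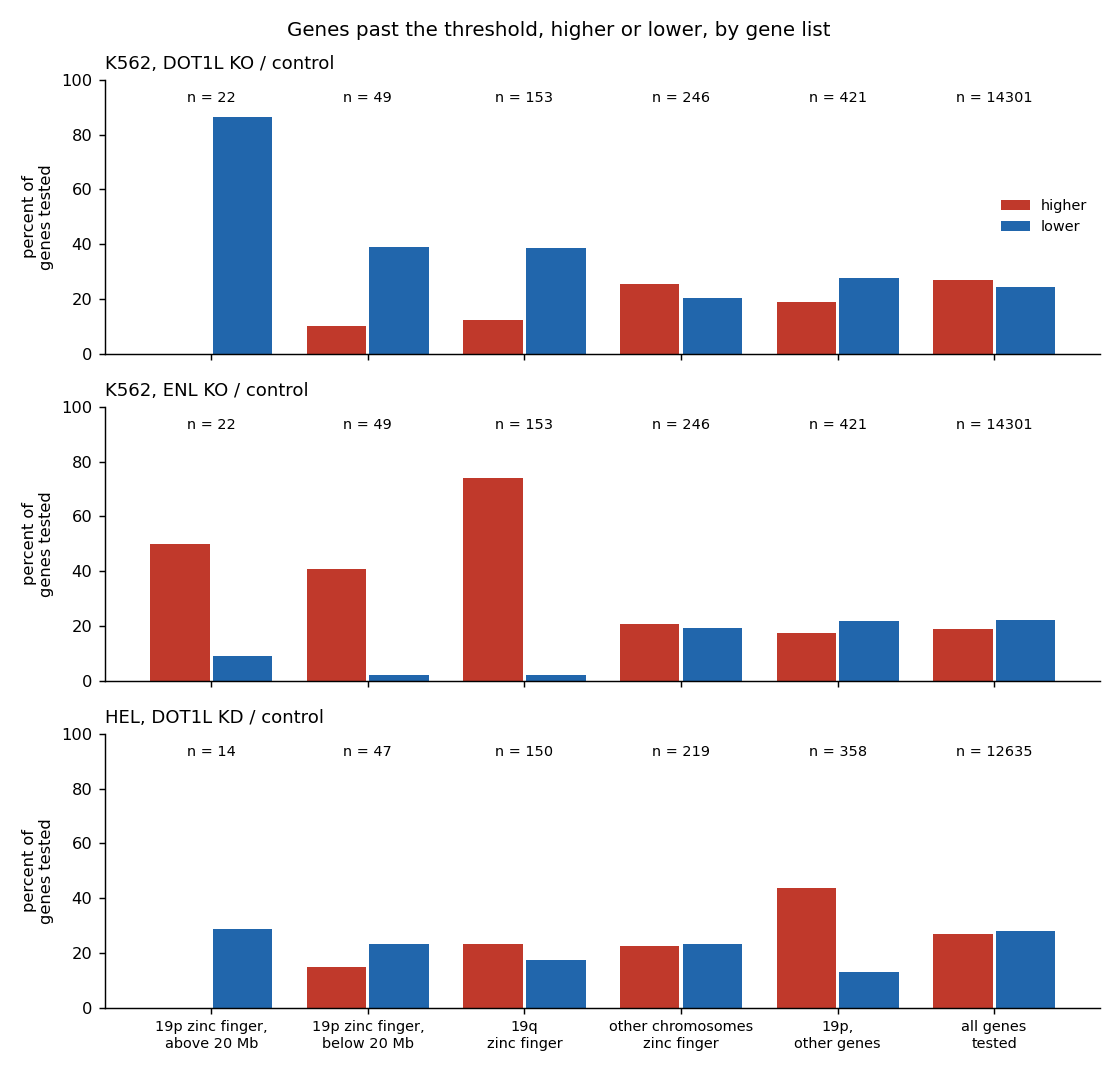
Percent of tested genes past the threshold and higher or lower in each comparison with a control, for the members on both sides of 20 Mb, zinc finger genes of the long arm and of other chromosomes, other short-arm genes and all genes tested, with the number tested above each pair of bars. The tallest bar of the DOT1L KO is that of the members above 20 Mb, and the tallest of the ENL KO is that of the long-arm zinc finger genes.

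Genes without a zinc finger name are sparse above 20 Mb. Of 14 listed there 3 could be tested in K562, and all 3 fell in the DOT1L KO: the pseudogene IPO5P1 by 5.02 (SE 0.42) on the log2 scale, the pseudogene RPSAP58 by 0.75 (SE 0.13), and the long noncoding RNA LINC01224, which stood at 0.327 ± 0.195 CPM (SD, n = 2) in the control and had no count in the DOT1L KO. Of 5 zinc finger genes that the tables list on an alternate contig as well, and that are not among the 88, ZNF66 fell by 3.34 (SE 0.59) and ZNF43 by 2.06 (SE 0.26) in the DOT1L KO. ZNF43 rose by 1.25 (SE 0.19) in the ENL KO, ZNF100 did not pass the test in either knockout, and ZNF85 and ZNF676 had too few counts. These neighbours were named after their values were seen.

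Genes of the pathway through which KRAB domains act were examined as a list. Of 27 listed genes of this pathway, 4 rose and 4 fell in the DOT1L KO, 5 rose and 2 fell in the ENL KO, and 5 rose and 8 fell of 26 tested in the HEL KD. The shares past the threshold were 29.6%, 25.9% and 50%, against 51.1%, 41% and 55% of all genes. No member of the list had a log2 fold change beyond 0.71 in any of them. TRIM28, the corepressor bound by the KRAB domain, stood at 1012 ± 79.9 CPM (SD, n = 2) in the K562 control and 1035 ± 39.3 CPM (n = 3) in the DOT1L KO, a log2 fold change of 0.03 (SE 0.06), and rose by 0.23 (SE 0.06) in the ENL KO and by 0.12 (SE 0.03) in HEL. SETDB1, the methyltransferase that TRIM28 recruits, did not pass the test in either K562 knockout (0.05 and 0.15, SE 0.06 in both) and fell by 0.12 (SE 0.05) in HEL. CHD3, a remodeller of the NuRD complex, had the largest change of the list in the DOT1L KO, a rise of 0.71 (SE 0.07). DNMT1, the maintenance DNA methyltransferase, fell by 0.23 (SE 0.05) in the DOT1L KO and by 0.14 (SE 0.03) in HEL.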

How the data were processed

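The members, gene lists and tests were chosen with earlier results of these data known. Per the file headers, the authors deposited raw counts per gene, fragments in K562 and reads in HEL, and the submitters' processing notes name fastp 0.13.1, HISAT2 2.1.0, Bowtie2 2.3.4.1, deepTools, featureCounts 1.6.1, hg38 and hg19 with no role given. Poly(A) RNA went into stranded libraries, per the labels, and whether counting used strand is not given in the sources used here. K562 control columns 2 and 3 held identical counts for all 28131 genes and were counted as 1 sample, which left 12 of 13 libraries.

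Genes with too few counts were removed with edgeR's filterByExpr (minimum count 10, minimum total 15), libraries were scaled by TMM, and the quasi-likelihood test of edgeR 4.0.16 (R 4.3.3) was fitted to 8 K562 libraries, to 4 HEL libraries and, for the interaction, to 9 libraries of both lines, with p-values adjusted over all genes tested. The biological coefficient of variation was 6.34% in K562 and 1.83% in HEL. A floor of 3 counts corresponded to 0.103 to 0.247 CPM. DESeq2 1.42.0 was an alternative, as were other scalings, filters, samples and left-out libraries. The fits were tested on simulated data with known changes.

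Named in full were, on each side of 20 Mb and for each comparison with a control, up to 3 members of largest change in each direction among those past the threshold, with at least 1 CPM in a group and groups that did not overlap, and the 5 members of highest CPM per kb in each control. No member passed in the same direction in all 3 comparisons. Others were named by their place on the arm. Motifs were searched in RefSeq promoters (GRCh38.p14). Protein sequences were not analysed here, nor were 61 other samples of the series. Replicate numbers were checked, and the main fits did not treat them as pairs. Figures were drawn with matplotlib 3.10.9.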

Additional observations from a re-analysis of the deposited data

Results flagged for a closer look

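Of the members named in full, 16 differed between HEL and K562 by the interaction test (edgeR adjusted p below 0.05). Over all 15367 genes tested 38.9% were past that threshold. Many of these members were named for a large change in the DOT1L KO or KD, which enters the difference, so their count does not describe the arm. Values are the change with DOT1L depletion in HEL minus that in K562 on the log2 scale. Below 20 Mb the differences were 0.77 for ZNF358, 0.39 for ZNF121, -0.27 for ZNF562, 0.92 for ZNF653, -0.73 for ZNF823, 2.1 for ZNF844, 2.89 for ZNF788P, 4.01 for ZNF563, 2.1 for ZNF442 and -1.31 for ZNF333. Above 20 Mb they were 0.52 for ZNF708, 2.20 for ZNF493, 8.31 for ZNF728, 6.46 for ZNF730, 4.41 for ZNF724 and 2.89 for ZNF91. Cell line, knockdown against knockout, and read against fragment counting go together here and cannot be told apart.

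Few counts stood behind 4 of these values. ZNF563 had 7 and 13 counts in the K562 controls and 2, 2 and 1 in the DOT1L KO. In HEL ZNF728 had 0 and 0 counts in the controls against 0 and 2 in the KD, ZNF730 had 5 and 1 against 4 and 0, and ZNF442 had 6 and 4 against 5 and 6, so the sizes of these 4 are no measure of a fold. The difference of ZNF728 was 4.58 (edgeR adjusted p = 1.00) without HEL KD replicate 2, and that of ZNF730 was 1.74 (edgeR adjusted p = 1.00) without KD replicate 1. ZNF442 lost its call in 6 of the fits that left out 1 library, with an edgeR adjusted p from 0.0519 to 0.145.

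Calls of 3 other genes also rested on single libraries. ZNF708 lost its call without either K562 control, DOT1L KO replicate 1, either HEL control or KD replicate 2 (edgeR adjusted p from 0.0525 to 0.205). ZNF562 lost it without K562 control replicate 1, HEL control replicate 1 or either KD library (0.0648 to 0.144), and ZNF823 without K562 control replicate 1, HEL control replicate 2 or KD replicate 1 (0.0622 to 0.0778). ZNF724 moved to 5.41 without DOT1L KO replicate 1.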

How the results depend on the processing

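No member called in any comparison changed direction under an alternative. Members past the threshold numbered 43 in the DOT1L KO, 34 in the ENL KO, 57 between the knockouts, 22 in HEL and 32 in the interaction. Where a change also had to reach 1 on the log2 scale in size, the counts were 28, 5, 33, 1 and 21. Leaving out 1 library at a time gave 37 to 44, 24 to 36, 55 to 57, 14 to 18 and 25 to 33, with 14 in HEL without control replicate 2. In every such fit 32 of the 43, 20 of the 34, 55 of the 57, 11 of the 22 and 22 of the 32 calls were kept. DESeq2 gave 10 in HEL (3 higher, 7 lower). With the replicate number as a block the counts were 45, 35, 57, 22 and 35. Libraries of the same number in different groups correlated by 0.0531 to 0.220 in K562, and those of different number by -0.158 to 0.0881. The ranges overlapped, same-numbered K562 libraries were weakly alike, and the main fits used no pairing. In HEL the values were 0.000442 for the same number and -0.000442 for different numbers. Adding the 5 genes listed on alternate contigs, chosen after seeing the data, gave 45, 35, 60, 22 and 32. For the genes named in full, 355 of 378 recomputed values over 27 gene and comparison pairs stayed on the same side of the threshold, 23 lost their call and 0 reversed. Depth limited the members near or under the floor of 3 counts, above all in HEL.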

Other observations

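Some members without a count in either K562 control had counts in the ENL KO. Of 13 such members 6 had a count in all 3 ENL KO libraries (ZNF556, ZNF625, ZNF506, ZNF682, ZNF492 and ZNF723), or 46.2%, against 0.799% of the 10139 genes with no control count. In all 3 DOT1L KO libraries 0 of the 13 had a count, against 5.09% of those genes, and 13 genes are too few to read that 0 as a difference. A count in at least 1 DOT1L KO library was present in 5 of the 13 (38.5%), against 21.6% of those genes. For the ENL KO this was 9 of the 13 (69.2%), against 10.6%. The levels were low, with at most 15 counts summed over the 3 ENL KO libraries, and these genes were too sparse for a test. They were singled out after their values were seen.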
